A study of Caenorhabditis elegans with 4 samples.

Results

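The arms of chromosome V carried 1132 of the 15765 COH-1 peaks in the peak list of the whole series, 628 on the left arm and 504 on the right arm. Peaks were chosen by position alone: a peak of V belonged to the left arm if its midpoint lay at or below 7 Mb and to the right arm if it lay above 14 Mb, and the 1413 peaks between these points are called the centre. The data came from ChIP-seq, in which DNA bound by a protein is recovered with an antibody and sequenced, of *Caenorhabditis elegans* labelled as hermaphrodite, germline-containing young adults. All worms carried fem-2(b245), an allele on chromosome III of a gene required for male development and sperm, and the series record gives 20 °C. Ground frozen worms had been crosslinked for 20 minutes with EGS, which links proteins, and then for 10 minutes with EGS and formaldehyde. There were 2 ChIP samples, made with a rabbit polyclonal serum antibody against COH-1, and 2 input DNA samples, whose own values were not analysed here. The replicate 2 list was deposited under a name that includes csr1, which the labels do not explain, so every mean and SD over the replicates rests on taking that list as a COH-1 replicate, as its labels state. The growth protocol describes gravid adults, and the antibody number in the series title differs from that in the antibody description. The genome build is WS220 (ce10), per the file headers and the submitters' processing notes, and all positions below are on V in that build.

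COH-1 is a kleisin, the cohesin subunit that bridges the ATPase heads of the 2 SMC proteins and so closes the ring. Cohesin holds sister chromatids together and extrudes loops of DNA, and the worm has several kleisins, of which REC-8, COH-3 and COH-4 serve meiosis. The arms of *C. elegans* autosomes recombine more, hold more repeats and carry more heterochromatin marks than the centres, and the arms of V are known for large families of chemoreceptor genes. Because extracts came from whole worms, occupancy in few cells and low occupancy in many cells cannot be told apart. The only gene table at hand is on another build, so peaks are given by position without gene names.

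Both arms held fewer than 1 COH-1 peak for every 2 in the centre, per unit length, in each of the 3 lists. In the list of the whole series, called the series list, density was 89.7 peaks per Mb on the left arm and 72.8 on the right arm, against 202 in the centre. The replicate 1 list had 14.4 peaks per Mb on the left arm and 9.39 on the right arm, against 32.4 in the centre. The replicate 2 list had 22.1 on the left arm and 16.3 on the right arm, against 44.9 in the centre. The log2 ratio of left arm over centre averaged -1.09 ± 0.11 (SD, n = 2 replicate lists) and was -1.17 in the series list. The log2 ratio of right arm over centre averaged -1.62 ± 0.23 (SD, n = 2) and was -1.47 in the series list. Each of these mean ratios lay below 0 by several times its SD, but with 2 replicates an exact sign-flip permutation test (two-sided) gave p = 0.5, the smallest it can give. The ratios in bases were similar: series peaks covered 5.66% of the left arm and 4.89% of the right arm, against 13.2% of the centre. Peaks of replicate 1 covered 3.85%, 3.75% and 10.8% of these parts, and peaks of replicate 2 covered 6.52%, 5.51% and 15.5%. Series peaks at most 1 kb apart can be fragments of 1 bound region, and after joining them the log2 ratios were -0.75 on the left arm and -1.10 on the right arm.

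The left arm had more peaks per Mb than the right arm, but not more strong ones. The log2 ratio of left over right averaged 0.53 ± 0.13 (SD, n = 2 replicate lists) and was 0.30 in the series list. With only the upper 50% of scores in the series list it was 0.05. When all series peaks were split into 4 parts of equal size by score, the left arm held 181, 174, 147 and 126 peaks in the parts from lowest to highest, and the right arm 128, 120, 113 and 143. The left arm thus had more peaks in the 3 lower parts and fewer in the highest one. Replicate scores were not split this way, and in replicate 2 the score of 3100 went to 20 left arm and 16 right arm peaks. In bases covered the arms were closer, with a mean log2 ratio of left over right of 0.14 ± 0.14 (SD, n = 2), a difference no larger than its spread between the replicates.

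**Figure D1:**
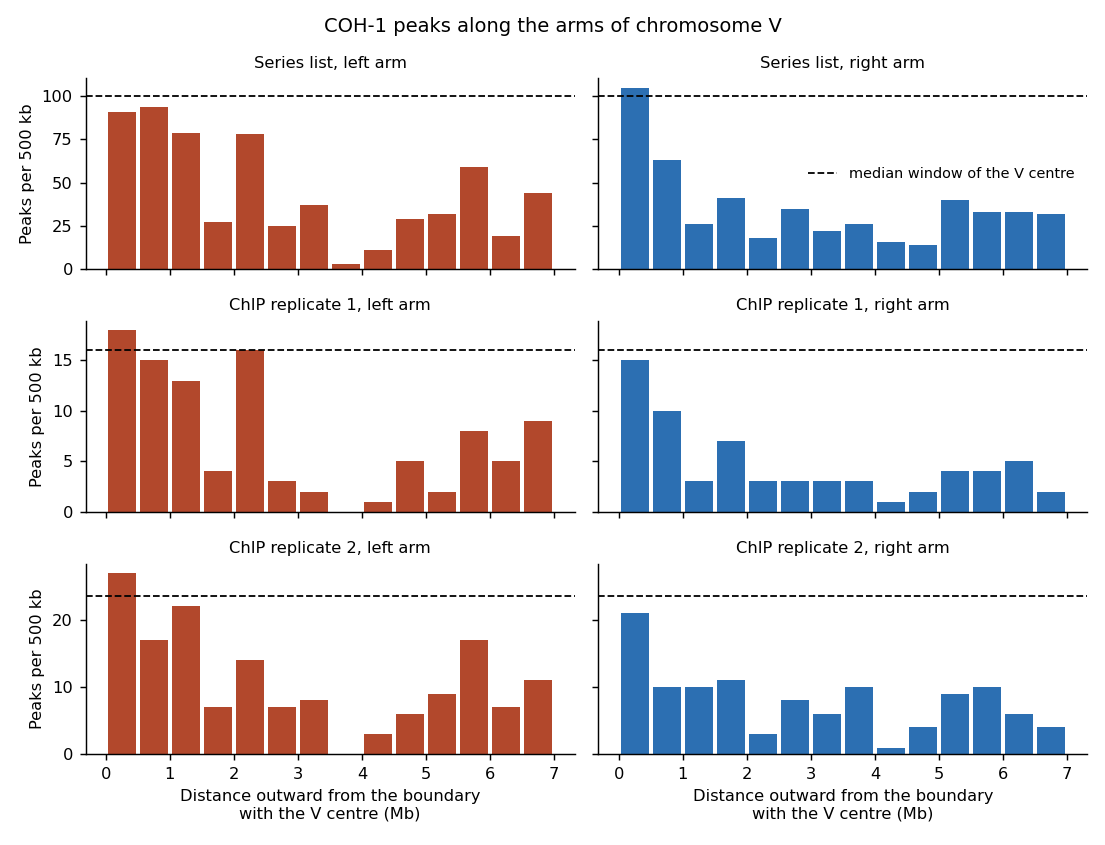
COH-1 peaks per 500 kb window (bars) against the distance of the window outward from the boundary with the centre of V, for the left arm (left column) and right arm (right column) in the series list and the 2 replicate lists; the dashed line is the median window of the centre, and the last right window is shorter than the others, at 424 kb. The windows nearest the centre reach or approach the line in each list, and the lowest left arm window holds 3 series peaks and none of either replicate.

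Along each arm the peaks were most frequent next to the centre, thinned out in the middle of the arm, and became more frequent again towards the chromosome end. In steps of 1 Mb outward from the centre, the left arm held 185, 106, 103, 40, 40, 91 and 63 series peaks. The same steps held 33, 17, 19, 2, 6, 10 and 14 peaks of replicate 1 and 44, 29, 21, 8, 9, 26 and 18 peaks of replicate 2. All 3 lists therefore had their lowest left arm count between 3 and 5 Mb outward and a higher one beyond it.

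On the right arm the steps outward held 168, 67, 53, 48, 30, 73 and 65 series peaks, the last one over 0.924 Mb. Replicate 1 gave 25, 10, 6, 6, 3, 8 and 7 peaks in these steps, and replicate 2 gave 31, 21, 11, 16, 5, 19 and 10. The step from 4 to 5 Mb outward was the lowest in each list. The innermost 1 Mb supplied 29.5% of the series peaks of the left arm and 33.3% of those of the right arm, 32.7% and 38.5% of the replicate 1 peaks, and 28.4% and 27.4% of the replicate 2 peaks. Without it the arms held 73.8 and 56.7 series peaks per Mb.

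Windows of 500 kb showed how uneven the arms were. The 14 left arm windows held between 3 and 94 series peaks with a median of 34.5, and the 13 complete right arm windows between 14 and 105 with a median of 33, against 43 to 151 with a median of 100 in the 14 windows of the centre. The densest left arm windows started at 6000001 (94 series peaks), 6500001 (91) and 5500001 (79), all next to the centre. The sparsest started at 3000001 (3), 2500001 (11) and 500001 (19). On the right arm the densest windows started at 14000001 (105), 14500001 (63) and 15500001 (41), and the sparsest at 18500001 (14), 18000001 (16) and 16000001 (18). The change in density did not fall at 7 Mb itself: the first 2 windows of the centre, from 7000001 to 8000000, held 43 and 61 series peaks, fewer than the last 2 windows of the left arm. At 14 Mb the window on the arm side held 105 and the one on the centre side 93.

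Peaks at the boundaries were ordinary in size. The nearest left arm peaks, 6998881 to 6999066 and 6999344 to 6999510, had widths of 186 and 167 bp and scores of 4.29 and 6.13, and the nearest peaks of the centre, at 6999950 and 7000552, had widths of 554 and 469 bp and scores of 4.87 and 11.3. A single replicate 2 peak of 3680 bp spanned all 4. The nearest right arm peaks, at 14002028 and 14002240, scored 2.26 and 4.92 with widths of 167 and 192 bp, and the nearest peaks of the centre, at 13998922 and 13999616, scored 3.16 and 5.44 with widths of 292 and 262 bp.

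The order of the windows was much alike in the replicates. Across the 14 left arm windows the share of bases inside peaks of replicate 1 and of replicate 2 gave Spearman's rho = 0.95 and Pearson's r = 0.88, and across the 13 complete right arm windows rho = 0.86 and r = 0.94. These values describe windows of 1 chromosome that share libraries and sequence composition, and they carry no p-value. The clearest departure was the left arm window starting at 6000001, with 6.2% of its bases in replicate 1 peaks, 18.3% in replicate 2 peaks and 20.3% in series peaks.

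Large parts of both arms were free of COH-1 peaks in every list. Stretches of at least 100 kb without a peak numbered 17 on the left arm and 21 on the right arm, against 4 in the centre. They made up 2.97 Mb, or 42.4%, of the left arm and 3.50 Mb, or 50.6%, of the right arm, against 9.16% of the centre. Of at least 200 kb there were 3 on the left arm and 6 on the right arm, against 1 in the centre. The single longest stretch was on the left arm, and the right arm had more stretches past either length. Read depth and mappability were not given for any position, so empty sequence and sequence that reads could not reach cannot be told apart.

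The 5 longest left arm stretches all lay between 494458 and 3388313. They were 462 kb from 2733495, 309 kb from 2291973, 228 kb from 737734, 193 kb from 3195335 and 189 kb from 494458. The first and the fourth were separated by 1 series peak of 199 bp with a score of 4.87. Neither replicate had a peak in the whole of the interval from 2732955 to 3579104, which is 846 kb long. It was touched by 6 series peaks, with scores of 3.47 to 7.49 and none wider than 344 bp. The widest of them, 2732704 to 2733047, crossed the left edge of the interval and was overlapped by replicate 2. The next interval empty in both replicates ran from 2144697 to 2672187, or 527 kb, and held 3 series peaks scoring 3.22 to 5.49. Apart from that peak at the edge, what COH-1 signal these 2 intervals held was in narrow peaks of the series list alone.

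The 5 longest right arm stretches lay between 16120562 and 20689635. They were 341 kb from 19058438, 270 kb from 17387107, 263 kb from 20426295, 245 kb from 19757675 and 227 kb from 16120562. Peaks that bordered them were not all weak: the series peak before the first scored 19.6 and the one before the third 15.3, both in the highest 25% of the series list. The longest right arm interval without a peak of either replicate, 15712208 to 16347860, was 636 kb long and held 7 series peaks scoring 2.49 to 6.94. At its right edge stood a strong site: the series peak 16349104 to 16352009 scored 56.6, within a replicate 1 peak of 5113 bp (score 1902) and a replicate 2 peak of 5246 bp (score 3100).

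**Figure D2:**
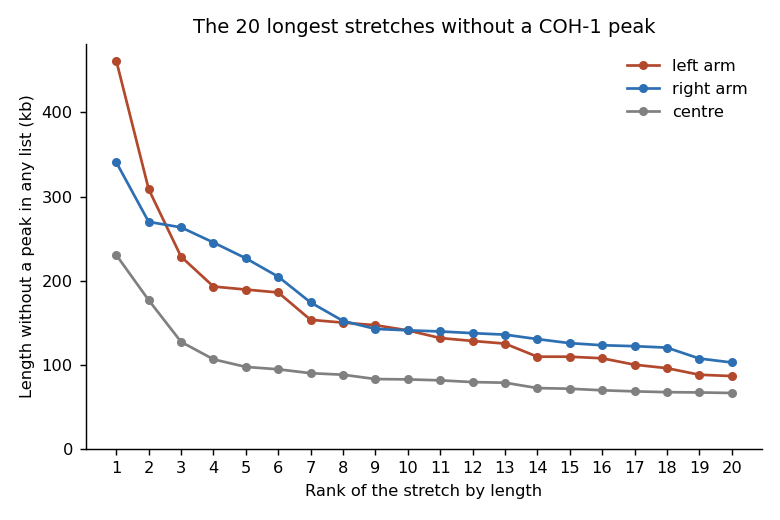
Length in kb of the 20 longest stretches without a peak in any of the 3 lists, ranked by length within the left arm, the right arm and the centre of V. At each rank both arms lie above the centre; the tenth is 141 kb on each arm and 82.5 kb in the centre.

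Where peaks did occur on the arms, single peaks were a larger share of the joined regions than in the centre, at either of the distances used to join them. Neighbouring series peaks were separated by at most 5 kb in 78.8% of cases on the left arm and 78.7% on the right arm, against 88.0% in the centre. Joining peaks at most 5 kb apart gave 134 regions on the left arm and 108 on the right arm, against 168 in the centre. Single peaks made up 37.3% and 38.9% of the regions on the left and right arms, against 24.4% in the centre. A region held a median of 2 peaks on each arm and 6 in the centre, with a median span of 1.93 kb on the left arm and 1.79 kb on the right arm, against 7.37 kb in the centre. When only peaks at most 1 kb apart were joined, single peaks made up 58.1% of the regions on the left arm and 61.5% on the right arm, against 50.1% in the centre, so most regions of the arms were then single peaks. At 5 kb the longest regions were 49.2 kb from 6206513 on the left arm and 32.5 kb from 14823625 on the right arm. Next in length were those from 6509368 (37.8 kb, 35 peaks) and 4486663 (32.2 kb, 31 peaks) on the left arm and from 14482225 (31.4 kb, 28 peaks) and 20394927 (30.6 kb, 17 peaks) on the right arm.

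In the series list, widths on the right arm had much the same distribution as in the centre, and left arm peaks were somewhat narrower. The median width of series peaks was 290 bp on the left arm (middle 50% from 196 to 501 bp) and 322 bp on the right arm (203 to 609 bp), against 323 bp in the centre (205 to 608 bp). Peaks of at least 1 kb made up 9.87% of the left arm list (62 of 628) and 14.7% of the right arm list (74 of 504), against 12.5% in the centre and 12.4% of all series peaks. Peaks of at least 5 kb numbered 10 on the left arm and 7 on the right arm, which is 1.59% and 1.39%, near the 1.36% of all series peaks. In replicate 1 the median width was 1646 bp on the left arm and 2809 bp on the right arm, against 2183 bp in the centre. In replicate 2 it was 1345 bp and 1519 bp on the left and right arms, against 1904 bp in the centre. Peaks of at least 5 kb made up 9.90% and 27.7% of replicate 1 peaks on the left and right arms, against 14.5% in the centre. In replicate 2 they made up 14.2% and 21.2%, against 15.0%. The right arm thus had the wider peaks of the arms in all 3 lists.

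Scores, which the authors' peak caller assigned and which no source defines, were also higher on the right arm than on the left. The median series score was 5.05 on the left arm and 5.69 on the right arm, against 5.18 in the centre. The highest 25% of all series scores took in 24.9% of the whole list because of ties, and 126 peaks (20.1%) of the left arm and 143 (28.4%) of the right arm, against 296 (20.9%) of the centre. Scores of at least 20 were given to 37 left arm peaks (5.89%) and 54 right arm peaks (10.7%), against 70 in the centre (4.95%) and 6.60% of all series peaks. In replicate 1 the median score was 110 on the left arm and 240 on the right arm, against 151 in the centre, and in replicate 2 it was 304 on the left arm and 351 on the right arm, against 415 in the centre. The right arm was therefore above the left in each list, but above the centre only in the series and replicate 1 lists. Wide peaks scored higher: the rank correlation of width and score was 0.68 across the left arm peaks and 0.71 across the right arm peaks, so the 2 measures overlap in part.

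**Figure D3:**
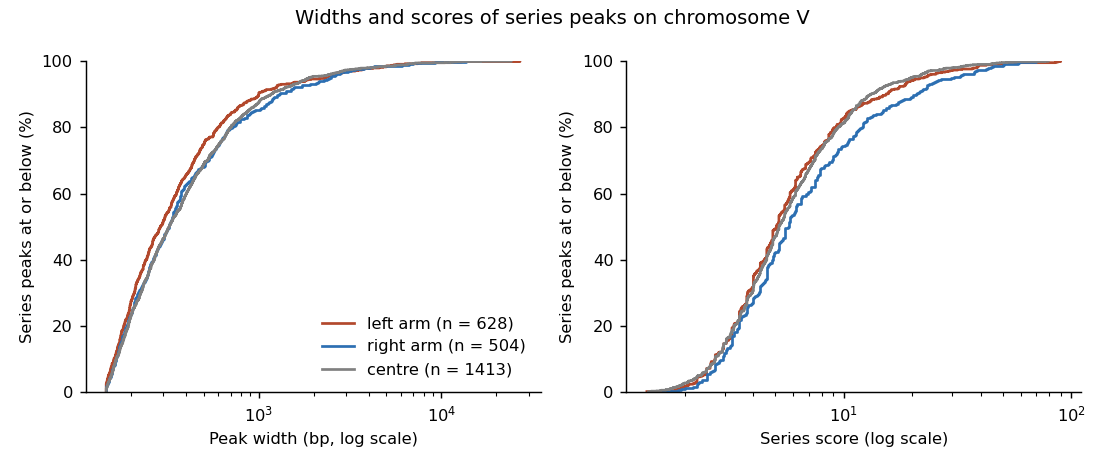
Cumulative share of series peaks at or below a given width (left panel, bp, log scale) and series score (right panel, log scale) for the left arm, right arm and centre of V. The width curves lie close together, with a lower median on the left arm (290 bp) than on the right arm (322 bp) or in the centre (323 bp). At the median and both quartiles the score curve of the right arm (median 5.69) lies to the right of those of the left arm (5.05) and centre (5.18). Its highest score, 69.6, is below those of the left arm (89.8) and centre (79.4).

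Most of the strongest left arm sites lay within 2 Mb of the left end, here called the outer group, or near the centre, the inner group. Of the 10 highest series scores on the left arm, 5 lay in the first 2 Mb and 4 between 5.5 and 7 Mb. The first 2 Mb held 154 of all 628 left arm peaks, and the windows starting at 5500001, 6000001 and 6500001 held 79, 94 and 91. The inner group thus lay in the 3 densest windows of the arm, and whether it exceeds the share of all peaks there was not tested. The outer group began with a pair of adjoining sites. The series peak 721907 to 729682 (7776 bp, score 44.8) stood beside 731135 to 736622 (5488 bp, score 85.1), which ranked 10 among all 15765 series peaks. A replicate 2 peak of 17303 bp at the score of 3100 spanned both, while replicate 1 resolved them into peaks of 8943 bp (score 2074) and 6585 bp (score 3168). The score of 3168 was the highest in the whole replicate 1 list.

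A similar pair lay farther in. The series peak 1145733 to 1152046 (6314 bp) scored 87.3, rank 7 of the series list, and 1155717 to 1161412 (5696 bp) scored 48.8. Both replicates separated the pair. Replicate 1 gave 6452 bp (score 3163) and 8099 bp (score 3100), with a further peak of lower score (447) before them, and replicate 2 gave 9865 and 9186 bp, both at 3100. The score of 3100 recurs in the replicate lists, 373 times in replicate 2, so it does not order these sites. The map of peaks at this pair shows the edges of the lists within a few kb of each other.

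Farther along, 1468902 to 1473104 scored 54.6 and its neighbour 1473983 to 1478977 scored 26.9, within a replicate 1 peak of 15163 bp (score 1548). A replicate 2 peak of 17478 bp (score 2355) held the first of them and overlapped the neighbour, which a further replicate 2 peak also touched. Close to the end of the chromosome, 15264 to 17580 scored 30.0 and was called in replicate 1 (2732 bp, score 460) and replicate 2 (3547 bp, score 3100). The site 973718 to 976065 scored 29.3 and was called in replicate 1 at 626 and in replicate 2 at 3095. The remaining pair of the 10 highest scores in the first 2 Mb, 264969 to 265956 (28.7) and 266009 to 267268 (24.2), had no counterpart in either replicate, whose nearest peaks were more than 53 kb away.

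The end region that held these sites was compared with the remainder of the arm. The first 2 Mb held 77.0 series peaks per Mb, against 94.8 in the remaining 5 Mb of the left arm. Replicate 1 had 12 against 15.4 peaks per Mb in these parts, and replicate 2 had 22 against 22.2. The share in the highest 25% of series scores was 29.9% (46 of 154), against 16.9% (80 of 474) in the remaining 5 Mb. The median series score was 5.49 in the first 2 Mb, against 4.87 in the rest of the arm. The median replicate 1 score was 166 in the first 2 Mb, against 105 in the rest of the arm, and the median replicate 2 score was 376 against 281. Median scores were thus higher near the left end than in the rest of the arm in each list, a comparison made without a test. The medians of the whole lists were 5.49 (series), 150 (replicate 1) and 323 (replicate 2), and 24.9% of all series peaks were in the highest 25%. By these values the first 2 Mb was at or somewhat above the whole list, and the rest of the arm was below it. The order of the densities turned on the innermost 1 Mb. Without it the arm beyond the first 2 Mb held 72.2 series peaks, 11 replicate 1 peaks and 16.8 replicate 2 peaks per Mb, fewer than the first 2 Mb in each list. The innermost 1 Mb was the densest step of the arm in each list, so leaving it out of 1 side had to lower that density. The turn in order is therefore a description only.

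**Figure D4:**
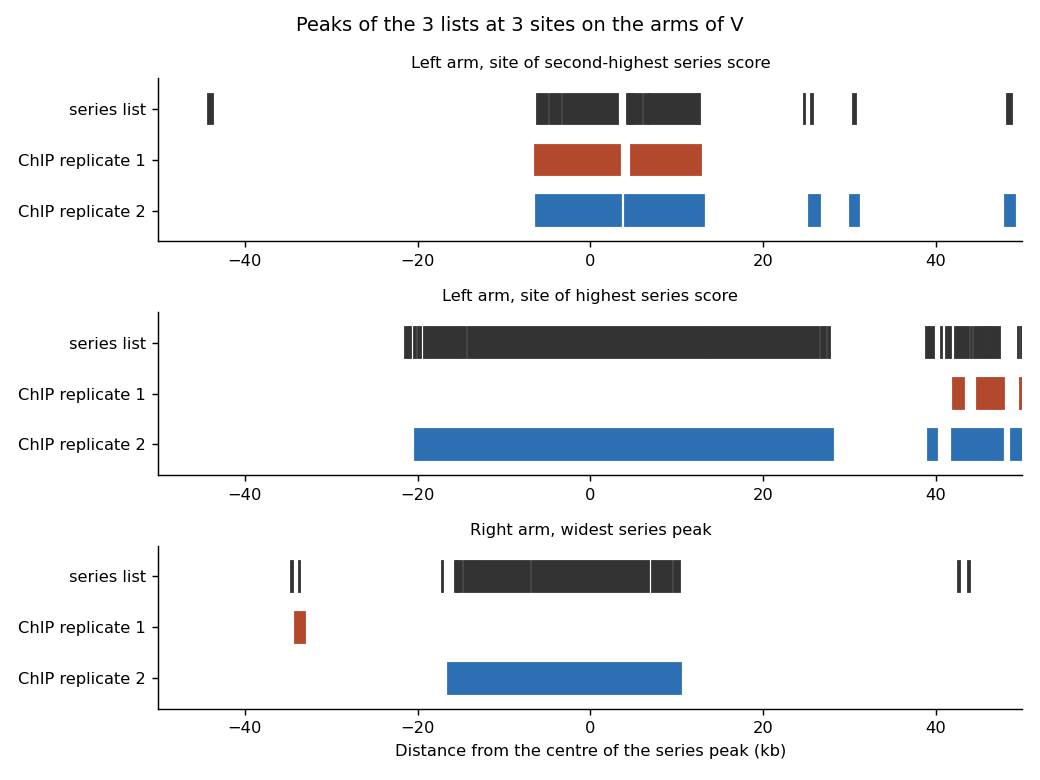
Peaks of the series list and the 2 replicate lists (filled boxes) at 3 sites, by distance in kb from the centre of the series peak: the left arm site starting at 1145733 (top), the left arm site starting at 6214524 (middle) and the right arm site starting at 20779462 (bottom). At the top site all 3 lists have peaks over both sites of the pair, while at the middle and bottom sites replicate 2 has 1 peak of 48409 bp and 26868 bp and replicate 1 has none over the site.

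The highest score on the left arm belonged to a site that replicate 1 lacked. The series peak 6214524 to 6241436 was 26913 bp wide and scored 89.8, rank 5 of the series list. Its neighbour 6241552 to 6254399 was 12848 bp wide and scored 38.6. Replicate 2 covered both with 1 peak of 48409 bp at a score of 542, well below 3100, and the nearest replicate 1 peak was 28468 bp from the first and 15505 bp from the second. The 2 series peaks lay in the 49.2 kb region named above, which held 12 series peaks. Of that region 97.6% lay in replicate 2 peaks and 0% in replicate 1 peaks. The other inner sites of the left arm were in both replicates: 5836248 to 5847499 (11252 bp, score 52.4), 6658158 to 6661114 (42.2) and 5690675 to 5694430 (39.0). The replicate 1 scores there were 1192, 1167 and 787, and all 3 had 3100 in replicate 2. Between the outer and inner groups, 2137847 to 2140655 scored 39.2, with 1375 in replicate 1 and 3100 in replicate 2.

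On the right arm the 10 highest scores were spread from the boundary to the right end, with 4 of them in the innermost 1 Mb. The highest was 15561065 to 15573605, 12541 bp wide with a score of 69.6 (rank 23), inside a replicate 1 peak of 14915 bp (score 2196) and a replicate 2 peak of 17296 bp (3100). In the innermost 1 Mb were 14849444 to 14856166 (59.1), 14192978 to 14194063 (50.5), 14199918 to 14201573 (48.1) and 14368074 to 14370565 (44.5), all in both replicate lists. The replicate 1 scores of these 4 were 1808, 2662, 661 and 1788. The site 14192978 was only 1086 bp wide in the series list but lay in replicate peaks of 9963 and 9337 bp in replicates 1 and 2. The site 19619826 to 19620466 was narrower still, at 641 bp with a score of 49.9, inside replicate peaks of 4050 bp (score 649) and 5368 bp (score 3100).

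The outermost strong sites of the right arm also lacked a replicate 1 peak. The series peaks 20773210 to 20779295 (6086 bp, score 60.9) and 20779462 to 20793098 (13637 bp, 58.1, the widest of the arm) lay in a replicate 2 peak of 26868 bp with a score of 2879, and the nearest replicate 1 peak was 16558 bp from that replicate 2 peak. Among the 10 highest right arm scores, 1 was missing from replicate 2 instead: 17128149 to 17132112 (45.5) had a replicate 1 peak of 4935 bp at a score of 214, and the nearest replicate 2 peak lay 1021 bp away. Other wide sites near the right end were in both lists, 20413184 to 20422453 (9270 bp, 38.4) and 20706425 to 20713415 (6991 bp, 37.3). Beyond the last replicate peak the final 127 kb held 6 series peaks, none wider than 331 bp, with a highest score of 9.41.

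A smaller share of arm peaks than of centre peaks was also present in both replicate lists by this rule, and only for the left arm did the intervals not overlap. A series peak was counted as found where a replicate peak overlapped it by at least 1 bp, and intervals are exact (Clopper-Pearson) 95% binomial intervals, which cover counting error only and treat neighbouring peaks as independent. Both lists overlapped 177 of 628 left arm peaks (28.2%, interval 24.7 to 31.9) and 159 of 504 right arm peaks (31.5%, 27.5 to 35.8), against 492 of 1413 in the centre (34.8%, 32.3 to 37.4) and 36.2% of all series peaks. The order depends on the rule: when at least 50% of both peaks had to overlap, the shares were 3.98% on the left arm and 2.78% on the right arm, against 2.12% in the centre. Neither list overlapped 220 left arm peaks (35.0%, interval 31.3 to 38.9) and 166 right arm peaks (32.9%, 28.8 to 37.2), against 24.0% (21.8 to 26.3) in the centre and 27.8% of all series peaks.

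The gap was seen for either replicate. Replicate 1 overlapped 206 left arm peaks (32.8%) and 192 right arm peaks (38.1%), against 43.5% in the centre and 42.6% of all series peaks. Replicate 2 overlapped 379 left arm peaks (60.4%) and 305 right arm peaks (60.5%), against 67.3% in the centre and 65.7% of all series peaks. Replicate 2 alone accounted for 202 left arm and 146 right arm peaks, and replicate 1 alone for 29 and 33.

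The shares in both replicate lists lay below the centre on the arms in the 3 lower parts of the series scores and not in the highest, with intervals that mostly overlapped. In the highest 25% of series scores, both replicates overlapped 71.4% of left arm peaks (interval 62.7 to 79.1) and 65.0% of right arm peaks (56.6 to 72.8), against 64.9% in the centre (59.1 to 70.3). In the next 25% the shares were 26.5% (19.6 to 34.4) and 30.1% (21.8 to 39.4) on the left and right arms, against 41.8% (36.6 to 47.1) in the centre, where only the interval of the left arm lay apart from that of the centre. In the part below that they were 16.7% and 20.8% on the left and right arms, against 26.7% in the centre, and in the lowest part 10.5% and 5.47%, against 13.3%. In the 3 lower parts the shares in neither replicate were 56.9%, 41.4% and 22.4% on the left arm from lowest to highest and 59.4%, 38.3% and 28.3% on the right arm, against 42.7%, 29.4% and 11.7% in the centre. Replicate peaks cover less of the arms, as given above, so a weak series peak there also has fewer replicate peaks near it, and the part of this in the shares was not tested.

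**Figure D5:**
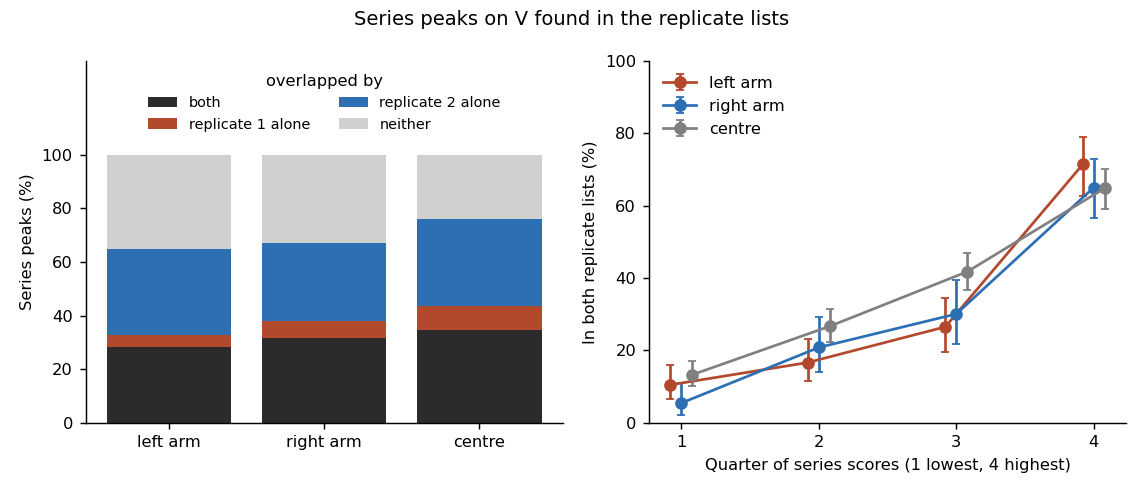
Left panel: share of series peaks overlapped by both replicate lists, by 1 alone or by neither, on the left arm, right arm and centre of V. Right panel: share found in both replicate lists by part of the series scores, with exact 95% binomial intervals as error bars; in the highest part the 3 values lie between 64.9% and 71.4% with overlapping intervals, and in the part below it both arms lie under the centre.

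On both arms, peaks of 1 to 5 kb were found more often than those under 250 bp. Among peaks under 250 bp, both replicates overlapped 26 of 265 on the left arm (9.81%) and 16 of 185 on the right arm (8.65%), against 15.6% in the centre. From 250 to under 500 bp the shares were 18.6% and 25.2% on the left and right arms, against 29.4% in the centre, and from 500 bp to under 1 kb they were 66.0% and 48.8%, against 57.4%. Among peaks of 1 to 5 kb they overlapped 42 of 52 on the left arm (80.8%) and 56 of 67 on the right arm (83.6%), against 70.5% in the centre. Among the few peaks of 5 kb or more they overlapped 7 of 10 on the left arm and 5 of 7 on the right arm, against 71.4% in the centre. On the arms the shares therefore did not rise further in the widest class. Wide peaks offer more bases to overlap and also scored higher, and the part of either in these shares was not tested. Left arm peaks in both lists had a median width of 637 bp and a median score of 9.30, and those in neither had 210 bp and 3.91. Right arm peaks in both had 660 bp and 11.3, and those in neither 210 bp and 4.

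Seen from the replicates, the arm peaks were recovered about as often as peaks elsewhere. Of the 101 replicate 1 peaks on the left arm, 87 (86.1%) met a replicate 2 peak, as did 54 of the 65 on the right arm (83.1%), against 86.3% in the centre and 87.1% of the whole replicate 1 list. Of the 155 replicate 2 peaks on the left arm, 75 (48.4%) met a replicate 1 peak, as did 53 of 113 on the right arm (46.9%), against 52.2% in the centre and 51.2% of the whole replicate 2 list. The intervals of each arm included the value of the centre. The series list overlapped 99 of 101 and 65 of 65 replicate 1 peaks on the left and right arms, beside 99.8% of the whole replicate 1 list, and 149 of 155 and 105 of 113 replicate 2 peaks, beside 96.8% of the whole replicate 2 list. It may rest on the same reads, so this overlap is not independent.

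Replicate peaks without a partner were mostly weak, with a few exceptions. On the left arm, the median score of the 80 unmatched replicate 2 peaks was 148, and that of the 75 matched ones was 1065, and on the right arm the 60 unmatched ones had 155 and the matched ones 1638. The highest-scoring unmatched replicate 2 peaks of the left arm were 2141830 to 2144696 (948), 1196847 to 1198049 (746) and 1874655 to 1876431 (630). On the right arm they were the 26868 bp peak from 20769850 (2879), 16600056 to 16603788 (1637) and 14458845 to 14461667 (1026).

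The strongest unmatched replicate 1 peaks of the right arm clustered. The highest-scoring 3 adjoined each other, at 14494968 to 14500133 (958), 14500275 to 14505349 (305) and 14506616 to 14511486 (576), and series peaks covered 85.9%, 64.4% and 88.7% of them. The nearest replicate 2 peaks were 3014, 6847 and 710 bp away. On the left arm the highest was 6339149 to 6343078 (475), followed by 4823405 to 4826169 (206) and 4826639 to 4828733 (133). Near the first of these, the series peak 6349494 to 6356934, 7441 bp wide with a score of 27.9, was in neither replicate list, with the nearest peaks 6416 bp away in replicate 1 and 6380 bp away in replicate 2. The strongest series peaks in neither list were 5283271 to 5285734 on the left arm (33.0) and 17117782 to 17118873 on the right arm (42.3, rank 178), singled out after their values were seen. The right arm peak lay 623 bp from a replicate 1 peak and 638 bp from a replicate 2 peak.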

How the data were processed

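The deposited files were 3 peak lists, 1 per ChIP replicate and 1 for the whole series. Per the submitters' processing notes, alignment used BWA and the ce10 build, and peaks were called with MACS (replicates) or MACS v2 (series list), per the source column of the files. For caller versions, thresholds, use of inputs and pooling, the sources used here give nothing. Every deposited peak has a score from the authors' caller, of undefined meaning, used only within its own list; other deposited values are positions in bp. Neither read depth nor input values enter, so precision from depth is unknown.

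Positions were processed with pandas 2.3.3, SciPy 1.17.1 and NumPy 2.4.6 under Python 3.11.15, and drawn with matplotlib 3.10.9; functions were tested on simulated data. The length of V was taken as the largest peak end, 20924180 bp. Overlap meant at least 1 bp. Named regions were, per arm, the 10 highest scores, 5 widest peaks, 5 longest empty stretches, 3 densest and 3 sparsest 500 kb windows, 3 strongest unmatched peaks per replicate, boundary peaks and, on the left, the 10 highest scores in the first 2 Mb. Members and lists were chosen with earlier results of these data known. Other regions (joined regions, replicate-only stretches, peaks in neither list, the chromosome end) were chosen after values were seen. No label says that the replicates were separate cultures, so their spread may be technical. Replicate log2 ratios were tested against 0 by an exact sign-flip permutation test, which cannot go below p = 0.5 with 2 replicates; no other test was run. Alternatives covered lists, scores, boundaries, overlap rule and joining of peaks.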

Additional observations from a re-analysis of the deposited data

How the results depend on the processing

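Of 61 alternatives to 12 values, none changed the sign of a log2 ratio, 26 left the value within its band and 35 moved it out. The band was 1 SD of the replicate lists for density ratios and a 95% binomial interval for shares and medians; for stretch lengths any change counted as a move. The order of the shares in both replicate lists did turn under 1 overlap rule, given below. With either replicate list alone, the log2 density ratio ran from -1.17 to -1.02 for left arm over centre, from -1.79 to -1.46 for right arm over centre and from 0.44 to 0.62 for left over right arm. With only peaks in both replicate lists, the ratios were -1.47 for left arm over centre and 0.14 for left over right arm, and the upper 50% of series scores gave 0.052 for left over right arm. Joining peaks gave -0.75 for left arm over centre and -1.10 for right arm over centre. The share of series peaks in both replicate lists was 3.98%, 2.78% and 2.12% (left arm, right arm, centre) when at least 50% of both peaks had to overlap, a rule that excludes a narrow peak within a wide one and puts both arms above the centre, and 46.1%, 48.7% and 51.4% for the upper 50% of scores. With 1 replicate left out it ran from 32.8% to 60.4% on the left arm, from 38.1% to 60.5% on the right arm and from 43.5% to 67.3% in the centre. Median width was 637 bp (left arm) and 660 bp (right arm) for peaks in both lists and 491 and 554 bp for the upper 50% of scores, and median score was 9.30 and 11.3, and 8.58 and 9.42. With the upper 50% of scores the longest empty stretch was 655 kb on the left arm and 382 kb on the right arm, and with the replicate lists only, an alternative chosen after seeing the data, 846 and 636 kb. On the right arm it was 341 kb with the series list alone, and from 340.7 to 341 kb with 1 replicate left out. Read depth sets no limit that could be stated here. For ChIP against input, no paired analysis was possible because the inputs that share replicate numbers with the ChIP samples had no values here. The only test run was the sign-flip permutation test of the replicate log2 ratios given above, which cannot decide with so few replicates.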
